A study of Mus musculus with 2 samples.

Results

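The major histocompatibility complex (MHC) genes and the peptide loading genes of mouse gastrocnemius, a calf muscle, were compared between 2 RNA sequencing libraries. The members were chosen by name: every gene whose symbol starts with H2-, with B2m, Tap1, Tap2, Tapbp, Cd74 and Ciita. They are 50 of the 34745 genes counted. The TECRLscko library came from mice whose loxP-flanked Tecrl allele is cut by Cre from a Pax7 knock-in allele (Pax7tm1(cre)Mrc) in satellite cells, the stem cells of muscle. The TECRLflox/flox library came from mice that carry the same conditional allele. The sources used here do not give the strain, age, sex or number of mice behind a library, any injury, or whether these controls also carry the Cre. The Cre line is not described as inducible, and the RNA was total RNA of the whole muscle.

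MHC class I molecules display peptides from inside a cell to CD8 T cells and natural killer cells. Each is a polymorphic heavy chain held by the light chain beta-2-microglobulin, and its peptide is pumped into the endoplasmic reticulum by the TAP transporter and loaded with the help of tapasin. Class II molecules are pairs of alpha and beta chains on professional antigen-presenting cells, guided by the invariant chain and loaded with the help of H2-DM, and they display peptides of engulfed protein to CD4 T cells. Resting muscle fibers carry little class I and no class II, and vessel, connective tissue and immune cells of the muscle also carry class I.

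There was 1 library in each group, so no test across mice was possible and none was made. The TECRLscko library held 16946124 counts and the TECRLflox/flox library 19281017. Levels are given as CPM, a gene's counts relative to the library total, after scaling by trimmed mean of M-values (TMM), and ratios are TECRLscko over TECRLflox/flox, with exact 95% intervals that cover counting error only. Ratios called corrected had a library-wide trend with transcript length and GC content taken off, which is described after the members. The 12559 genes whose mean over both libraries reached 1 CPM form the background, and the text counts a gene as apart when its ratio is 1.5-fold or more from 1. The fiber genes Acta1, Ckm and Myh4 had 479918, 271775 and 463947 counts in the TECRLscko library, and 635546, 425589 and 557206 in the TECRLflox/flox library, which fits the labelled tissue. Of 6 fiber markers listed, 4 had a ratio under 1, as had 51.8% of the background genes. Myh1, at 1.31, and Mb, at 1.26, were higher. The median log2 ratio of the 6 was -0.081, and -0.0052 corrected. Tecrl itself had 4 counts in the TECRLscko library and 3 in the TECRLflox/flox library, which cannot show whether it was lost. In whole muscle, fewer cells of a type and less RNA per cell cannot be told apart.

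Of the 50 members, 32 had at least 1 count in either library, and 22 passed the mean of 1 CPM. Among these 22, 20 were below the TECRLflox/flox level, where 51.8% of all genes were. Of the 22, 2 members were at least 1.5-fold lower, against 4.94% of all genes, and none was at least 1.5-fold higher, against 10.5% of all genes. At 2-fold, 2 of the 22 were lower, against 1.3% of all genes, and none was higher, against 3.22% of all genes. The median log2 ratio was -0.29 over the 22 members and -0.02 over all 12559 genes. Before correction the displacement was thus small and in the same direction for most members, and large for a pair of class I genes, H2-Q6 and H2-Q7. The counting interval reached 1 for 9 of the 22. With corrected ratios 15 of the 22 were below, against 52.9% of all genes. The 22 include 2 class I pseudogenes and H2-Ke6, which encodes no MHC chain.

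**Figure D1:**
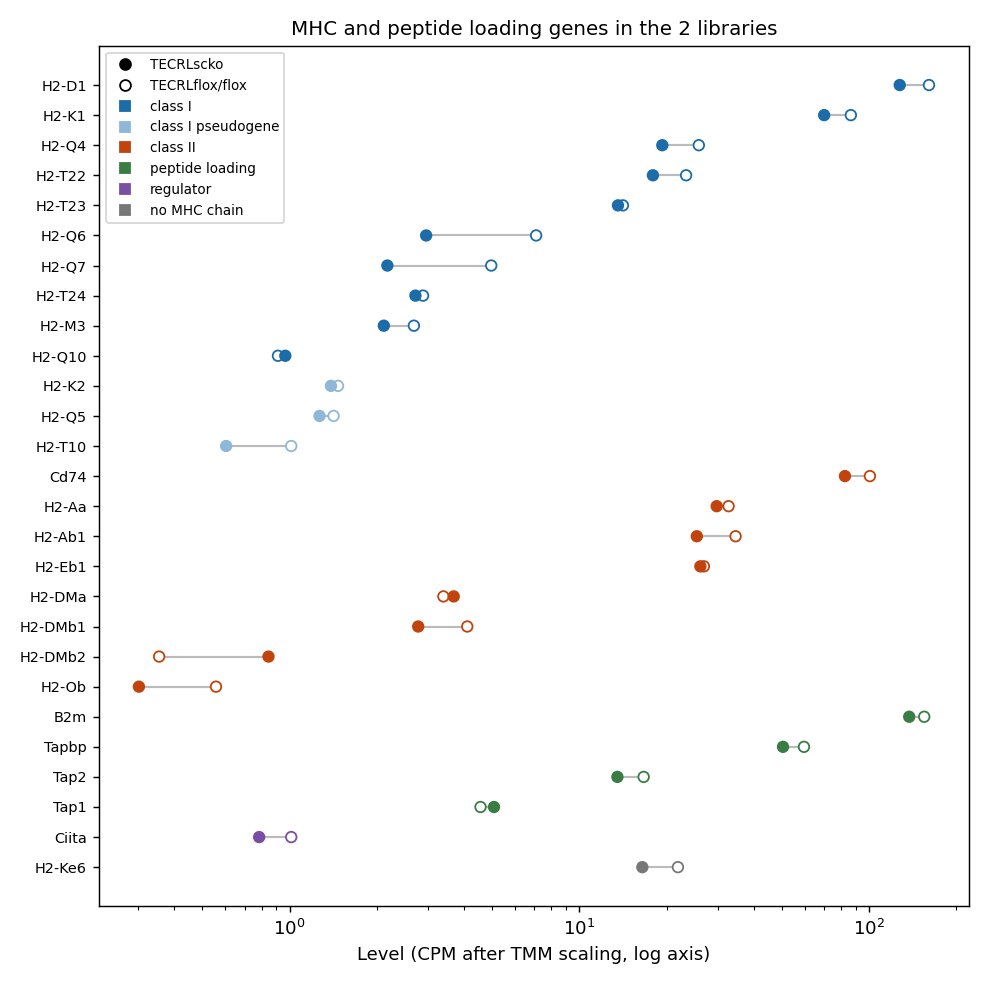
Level of each member with at least 10 counts over both libraries, in CPM on a log axis; filled points are the TECRLscko library, open points the TECRLflox/flox library, colored by class. H2-Q6 lies at 2.96 CPM in the TECRLscko library against 7.09 CPM in the TECRLflox/flox library and H2-Q7 at 2.17 against 4.97 CPM, while H2-T23 and H2-Eb1 nearly coincide.

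The class I heavy chain genes were lower in the TECRLscko library. Summed over the 24 protein-coding class I members they gave 4295 counts in the TECRLscko library and 6501 counts in the TECRLflox/flox library, or 259 TECRLscko CPM and 329 TECRLflox/flox CPM. The sum was 1.27-fold lower, with an interval of 1.22 to 1.32 and a log2 ratio of -0.34. All 9 class I members that passed 1 CPM were below the TECRLflox/flox level, with a median log2 ratio of -0.34. The counting interval lay below 1 for 6 of them and reached 1 for H2-M3, H2-T23 and H2-T24. With corrected ratios 7 of the 9 were below and the median was -0.14, with H2-D1 at -0.11 and H2-K1 at -0.084.

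H2-D1 (ENSMUSG00000073411, chromosome 17, 35262730 to 35267499, GRCm38) and H2-K1 (ENSMUSG00000061232, chromosome 17, 33996017 to 34000333) encode the classical heavy chains that present peptides to most CD8 T cells. H2-D1 had 2111 counts in the TECRLscko library and 3176 in the TECRLflox/flox library, and H2-K1 had 1158 TECRLscko counts and 1707 TECRLflox/flox counts. H2-D1 was 1.26-fold lower (1.19 to 1.33) and H2-K1 1.24-fold lower (1.15 to 1.33). They moved in step: H2-K1 counts per H2-D1 count were 0.549 in the TECRLscko library and 0.537 in the TECRLflox/flox library, an odds ratio of 1.02 (0.929 to 1.12). Per kilobase of their longest annotated transcript, H2-D1 stood at 60.7 CPM in the TECRLscko library and 76.6 CPM in the TECRLflox/flox library, and H2-K1 at 37.3 TECRLscko CPM and 46.2 TECRLflox/flox CPM. These 2 genes gave most class I counts in both libraries: H2-D1 took 49.2% in the TECRLscko library and 48.9% in the TECRLflox/flox library, and H2-K1 took 27.0% in the TECRLscko library and 26.3% in the TECRLflox/flox library.

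Among members with a mean of at least 1 CPM, the Q region of the class I cluster held the only ones past 1.5-fold. H2-Q6 (ENSMUSG00000073409, chromosome 17, 35424850 to 35430055) had 49 counts in the TECRLscko library and 140 in the TECRLflox/flox library, 2.40-fold lower (1.72 to 3.39). H2-Q7 (ENSMUSG00000060550, chromosome 17, 35439155 to 35443773) had 36 counts in the TECRLscko library and 98 in the TECRLflox/flox library, 2.28-fold lower (1.54 to 3.45). Both genes encode Qa-2, a nonclassical class I molecule that is often tethered to the membrane by a glycolipid anchor. Of the 12559 background genes, 79 had a lower ratio than H2-Q6 and 95 a lower ratio than H2-Q7. Their log2 ratios of -1.26 and -1.19 stood apart from that of the next class I member past the filter, H2-Q4, at -0.42. Genes of the Q region differ between mouse MHC haplotypes, the strain of neither library is given, and whether both libraries share a haplotype was not tested.

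H2-Q4 (ENSMUSG00000035929, chromosome 17, 35379617 to 35385290), a nonclassical heavy chain of the same region, had 320 counts in the TECRLscko library and 510 in the TECRLflox/flox library, 1.34-fold lower (1.16 to 1.54). The pair H2-Q6 and H2-Q7 gave 85 counts for the 320 of H2-Q4 in the TECRLscko library, and 238 for the 510 of H2-Q4 in the TECRLflox/flox library. The odds ratio of the pair against H2-Q4 was 0.569 (0.423 to 0.762), and against H2-K1 and H2-D1 together it was 0.534 (0.41 to 0.689). Scaling cancels in these quotients, so the pair was lower than H2-Q4, and than H2-K1 and H2-D1 together, by more than counting error. The pair held the lowest ratios among the members past the filter, which favors low quotients. The intervals make no allowance for this. H2-Q10, known as a secreted heavy chain of the liver, had 16 counts in the TECRLscko library and 18 in the TECRLflox/flox library, a ratio of 1.06 (0.506 to 2.20), and lay under the filter. H2-Q1 and H2-Q2 had 0 counts in both.

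Heavy chain genes of this cluster resemble one another, so reads can fit several of them. In the annotated transcripts, 10.8% of the distinct 100-base windows of H2-Q6 and 11.98% of those of H2-Q7 also occurred in another counted gene. With 50-base windows these shares were 31.8% for H2-Q6 and 26.4% for H2-Q7, and with 150-base windows 5.99% and 5.90%. The sources used here give neither the read length nor the treatment of reads that fit several genes. H2-Q6 and H2-Q7 moved the same way, and their summed counts, 85 in the TECRLscko library and 238 in the TECRLflox/flox library, were 2.35-fold lower (1.83 to 3.05). Reads shared with further genes also bear on that sum: the gene that shared most 100-base windows with H2-Q7 was H2-Q10, with 5.56%. The part of shared reads in these values was not tested. At 100 bases the share was 3.59% for H2-D1, 0.957% for H2-K1, 2.16% for H2-Q4 and 8.86% for H2-T22.

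Of the T region members, H2-T22 had a counting interval below 1, and the intervals of H2-T23 and H2-T24 reached 1. The interval of H2-T22 overlaps both others, and a difference between these genes was not tested. H2-T22 (chromosome 17, 36037128 to 36042747), whose product is bound by a subset of gamma-delta T cells, had 297 counts in the TECRLscko library and 461 in the TECRLflox/flox library, a ratio of 0.768 (0.662 to 0.891). H2-T23 (chromosome 17, 36029773 to 36032855) encodes Qa-1, which shows leader peptides of other class I chains to NKG2A receptors of natural killer cells. It had 225 counts in the TECRLscko library and 279 in the TECRLflox/flox library, a log2 ratio of -0.06 and a ratio of 0.962 (0.803 to 1.15). H2-T24 had 45 TECRLscko counts and 57 TECRLflox/flox counts, a ratio of 0.941 (0.622 to 1.42). The share of H2-T23 among class I counts was thus 5.24% in the TECRLscko library (95% Wilson interval 4.61 to 5.95) and 4.29% in the TECRLflox/flox library (3.83 to 4.81). H2-T3 had 0 counts in both.

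Of the 12 M region class I genes, H2-M3 (chromosome 17, 37270220 to 37274484), which presents formylated peptides of bacteria and mitochondria, passed the filter. It had 35 counts in the TECRLscko library and 53 in the TECRLflox/flox library, a ratio of 0.787 (0.499 to 1.23). H2-M1 had 0 counts in the TECRLscko library and 2 in the TECRLflox/flox library, and H2-M9 had 3 TECRLscko counts and 0 TECRLflox/flox counts, all within the floor of 3 counts per library. H2-M2, H2-M5, H2-M11 and the 6 protein-coding H2-M10 genes had 0 counts in both libraries. The floor corresponds to 0.181 CPM in the TECRLscko library and 0.152 CPM in the TECRLflox/flox library, so levels below it were not detectable at this depth.

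Among the 7 class I pseudogenes, H2-K2 had 23 counts in the TECRLscko library and 29 in the TECRLflox/flox library, H2-Q5 had 21 TECRLscko and 28 TECRLflox/flox counts, and H2-T10 had 10 TECRLscko and 20 TECRLflox/flox counts. H2-M6-ps had 1 TECRLscko and 4 TECRLflox/flox counts, and H2-Bl had 1 TECRLscko and 0 TECRLflox/flox counts. H2-Q3 and H2-M10.5-ps1 had none. Their sum was 56 counts in the TECRLscko library and 81 in the TECRLflox/flox library, a ratio of 0.824 (0.576 to 1.17) whose interval reaches 1.

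Promoter stretches of the class I genes are shown because the most abundant heavy chains and the H2-Q6 and H2-Q7 pair share the enhancer A, interferon and Y box letters in the same order. They come from the RefSeq promoter table for GRCm38.p6, which held 34 of the 50 members and covers the bases around an annotated start. Each stretch runs 5′ to 3′ in the direction of transcription, and capitals mark the motifs searched on both strands. In order of appearance these are the enhancer A core GGATTCC, which lies in an NF-kB element; the interferon element core TTTCACT; the X2 box core TGACG, which H2-Q6 lacks; and the Y box ATTGG, read as CCAAT on the other strand. The H2-K1 stretch lies at chr17:34000323-34000468 on the minus strand. H2-D1 is shown at chr17:35262913-35263057, H2-Q6 at chr17:35424667-35424811 and H2-Q7 at chr17:35439012-35439155, all on the plus strand.
H2-K1: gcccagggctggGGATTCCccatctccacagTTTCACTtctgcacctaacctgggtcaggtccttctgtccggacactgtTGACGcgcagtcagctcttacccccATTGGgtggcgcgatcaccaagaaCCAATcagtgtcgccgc
H2-D1: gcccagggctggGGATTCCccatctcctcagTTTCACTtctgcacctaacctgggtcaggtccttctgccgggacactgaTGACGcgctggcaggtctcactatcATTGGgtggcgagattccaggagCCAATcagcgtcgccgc
H2-Q6: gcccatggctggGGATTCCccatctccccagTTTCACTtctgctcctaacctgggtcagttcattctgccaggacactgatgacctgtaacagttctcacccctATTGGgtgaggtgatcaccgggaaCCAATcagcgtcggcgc
H2-Q7: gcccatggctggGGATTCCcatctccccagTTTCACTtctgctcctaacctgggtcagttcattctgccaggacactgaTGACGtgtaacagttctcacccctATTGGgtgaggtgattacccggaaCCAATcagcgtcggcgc

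The enhancer A core was found in these 4 of the 11 class I genes that had counts and a promoter in the table, and in 3.86% of 27025 promoters. The interferon core was found in 8 of the 11, including H2-Q4, H2-Q10, H2-T22 and H2-M3, and in 4.41% of all promoters. The Y box was found in 10 of the 11 and in 37.9% of all promoters, and the X2 core in 6 of the 11 and in 21.0% of all promoters. The enhancer A and interferon letters occur in H2-K1 and H2-D1, together 1.25-fold lower, and in H2-Q6 and H2-Q7, together 2.35-fold lower. The X2 core occurs in H2-K1, H2-D1 and H2-Q7 but not in H2-Q6. Whether these letters bear on the ratios was not tested. A match to letters is a description and not a shown binding site. The motifs were chosen from known MHC promoter elements after the promoters had been viewed, so their shares are no test of enrichment.

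The light chain and the loading genes lay closer to the TECRLflox/flox level than the heavy chains before correction, and the order turned after it: the corrected loading sum was -0.19 and the corrected class I sum -0.14. B2m, Tap1, Tap2 and Tapbp summed to 3419 counts in the TECRLscko library and 4653 in the TECRLflox/flox library, 1.14-fold lower (1.09 to 1.19). B2m (ENSMUSG00000060802, chromosome 2, 122147686 to 122153083), the light chain of all classical class I molecules, had 2276 counts in the TECRLscko library and 3058 in the TECRLflox/flox library, 1.13-fold lower (1.07 to 1.19), with a corrected log2 ratio of -0.26. There were 0.530 B2m counts per class I heavy chain count in the TECRLscko library and 0.470 in the TECRLflox/flox library, an odds ratio of 1.13 (1.05 to 1.205).

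Tapbp (ENSMUSG00000024308, chromosome 17, 33915899 to 33929288), tapasin, which bridges class I molecules to the transporter, had 835 counts in the TECRLscko library and 1176 in the TECRLflox/flox library, 1.18-fold lower (1.08 to 1.29). Summed with Zbtb22 and Gm19412, which overlap it, the ratio was 0.834 (0.772 to 0.901). The subunits of the TAP peptide transporter differed in direction. Tap2 (chromosome 17, 34203527 to 34216321) had 224 counts in the TECRLscko library and 329 in the TECRLflox/flox library, 1.23-fold lower (1.04 to 1.47). Tap1 (chromosome 17, 34187553 to 34197225) had 84 TECRLscko counts and 90 TECRLflox/flox counts, a ratio of 1.11 (0.817 to 1.52). The quotient of Tap1 over Tap2 had an odds ratio of 1.37 (0.958 to 1.96), so a difference between the subunits was not detectable at this depth. Psmb9, an immunoproteasome subunit that overlaps Tap1 head to head by 212 bp, had 63 counts in the TECRLscko library and 69 in the TECRLflox/flox library, a ratio of 1.09 (0.761 to 1.55).

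The class II genes were lower by a smaller margin, and not all in the same direction. Their 11 members summed to 2839 counts in the TECRLscko library and 4013 in the TECRLflox/flox library, or 171 TECRLscko CPM and 203 TECRLflox/flox CPM, 1.19-fold lower (1.13 to 1.24). Of the 6 that passed the filter, 5 were below the TECRLflox/flox level and 1 above, with a median log2 ratio of -0.21 and none past 1.5-fold. The interval lay below 1 for Cd74, H2-Ab1 and H2-DMb1. Their corrected log2 ratios were nearer to 0, at -0.014 for Cd74, -0.16 for H2-Ab1 and -0.32 for H2-DMb1. Class II counts per class I count were 0.661 in the TECRLscko library and 0.617 in the TECRLflox/flox library. The odds ratio of 1.07 had an interval of 1.01 to 1.14, so the gap between the classes barely exceeded counting error.

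Cd74 (ENSMUSG00000024610, chromosome 18, 60803848 to 60812646), the invariant chain that fills the class II groove on its way to the endosome, was the most abundant class II member. It had 1366 counts in the TECRLscko library and 1986 in the TECRLflox/flox library, 1.22-fold lower (1.14 to 1.31). H2-Ab1 (ENSMUSG00000073421, chromosome 17, 34263209 to 34269418), the beta chain of I-A, had 421 TECRLscko counts and 683 TECRLflox/flox counts, a ratio of 0.735 (0.649 to 0.831). Its partner H2-Aa (ENSMUSG00000036594, chromosome 17, 34282744 to 34287827), the alpha chain, had 493 counts in the TECRLscko library and 646 in the TECRLflox/flox library, with a ratio of 0.910 (0.808 to 1.02). Before correction the alpha and beta chains of 1 molecule thus did not stand at the same ratio. H2-Aa counts per H2-Ab1 count were 1.17 in the TECRLscko library and 0.946 in the TECRLflox/flox library, an odds ratio of 1.24 (1.04 to 1.47). After the correction this difference was not seen, and the corrected values are given below with the transcript lengths.

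H2-Eb1 (ENSMUSG00000060586, chromosome 17, 34305877 to 34316199), the beta chain of I-E, had 433 counts in the TECRLscko library and 531 in the TECRLflox/flox library, a ratio of 0.972 (0.854 to 1.11). Against H2-Ab1 it was higher, with an odds ratio of 1.32 (1.11 to 1.58). The I-E alpha chain gene, annotated as the pseudogene H2-Ea-ps, had 0 counts in both libraries, as did H2-Eb2. In the C57BL/6 reference, from which the annotation derives, the alpha gene is not functional. The longest annotated transcripts of H2-Ab1 and H2-Aa have 1212 and 3223 bases and GC contents of 57.3% and 46.5%. The corrected log2 ratios of H2-Ab1 and H2-Aa were near-equal, at -0.16 and -0.17, and H2-Eb1 stood at 0.17.

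Peptide exchange on class II is done by H2-DM and restrained by H2-O. H2-DMa (chromosome 17, 34135182 to 34139101) had 61 counts in the TECRLscko library and 67 in the TECRLflox/flox library, a ratio of 1.09 (0.755 to 1.56). The beta chain genes went apart. H2-DMb1 (chromosome 17, 34153072 to 34160230) had 46 counts in the TECRLscko library and 81 in the TECRLflox/flox library, 1.48-fold lower (1.02 to 2.17). H2-DMb2 (chromosome 17, 34143307 to 34151553) had 14 TECRLscko counts and 7 TECRLflox/flox counts, a ratio of 2.38 (0.901 to 6.98), and lay under the filter. H2-DMb2 counts per H2-DMb1 count had an odds ratio of 3.49 (1.21 to 11). These genes share 11.3% of the 100-base windows of H2-DMb1, and their sum, 60 counts in the TECRLscko library and 88 in the TECRLflox/flox library, had a ratio of 0.813 (0.576 to 1.14). H2-Ob had 5 counts in the TECRLscko library and 11 in the TECRLflox/flox library, and H2-Oa had 0 TECRLscko counts and 1 TECRLflox/flox count. The class II pseudogenes H2-Pa and H2-Pb had none.

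Class II promoters carry an X box and a Y box at a fixed spacing, bound by the RFX and NF-Y complexes on which the transactivator CIITA docks. Stretches of 4 class II genes are given for that reason, H2-Ab1 not being in the promoter table, with capitals for the X box core AACNGAT, the X2 core TGACG and the Y box ATTGG on either strand. In H2-Aa the X2 matches on the 2 strands overlap each other. H2-Aa is shown at chr17:34287855-34287909 on the minus strand. The others, on the plus strand, are H2-Eb1 at chr17:34305766-34305848, H2-DMb1 at chr17:34153087-34153146 and H2-DMb2 at chr17:34145116-34145175.
H2-Aa: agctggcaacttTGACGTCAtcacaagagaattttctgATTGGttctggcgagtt
H2-Eb1: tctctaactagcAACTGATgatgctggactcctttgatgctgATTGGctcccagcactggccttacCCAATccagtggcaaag
H2-DMb1: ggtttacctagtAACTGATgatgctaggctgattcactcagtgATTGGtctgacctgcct
H2-DMb2: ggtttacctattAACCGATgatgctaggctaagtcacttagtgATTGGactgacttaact

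The X box core was found in 3 of the 7 class II genes with counts and a promoter, H2-Eb1, H2-DMb1 and H2-DMb2, and in 6.90% of all promoters. The Y box was found in 6 of the 7. H2-DMb1 and H2-DMb2 both hold the X box core and the Y box, and whether these letters bear on their ratios was not tested. Neither the enhancer A core nor the interferon core was among the letters of these 7 windows.

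Ciita (ENSMUSG00000022504, chromosome 16, 10488178 to 10527564), the class II transactivator, had 13 counts in the TECRLscko library and 20 in the TECRLflox/flox library. Its ratio of 0.775 had an interval of 0.354 to 1.64, so neither a lower nor a higher level was detectable. It overlaps Dexi, an abundant gene on the other strand, and without a stated strand setting its reads cannot be told apart from those of Dexi. H2-Ke6 (chromosome 17, 34026033 to 34028060) carries an H2 name for its place in the complex but encodes a hydroxysteroid dehydrogenase and no MHC chain. It had 273 counts in the TECRLscko library and 432 in the TECRLflox/flox library, 1.33-fold lower (1.14 to 1.55). The overlapping model Gm20427 had 165 TECRLscko counts and 73 TECRLflox/flox counts and holds 61.6% of the 100-base windows of H2-Ke6. Their sum, 438 counts in the TECRLscko library and 505 in the TECRLflox/flox library, had a ratio of 1.03 (0.908 to 1.18), so the lower H2-Ke6 value is not seen once the counts of this model are added.

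**Figure D2:**
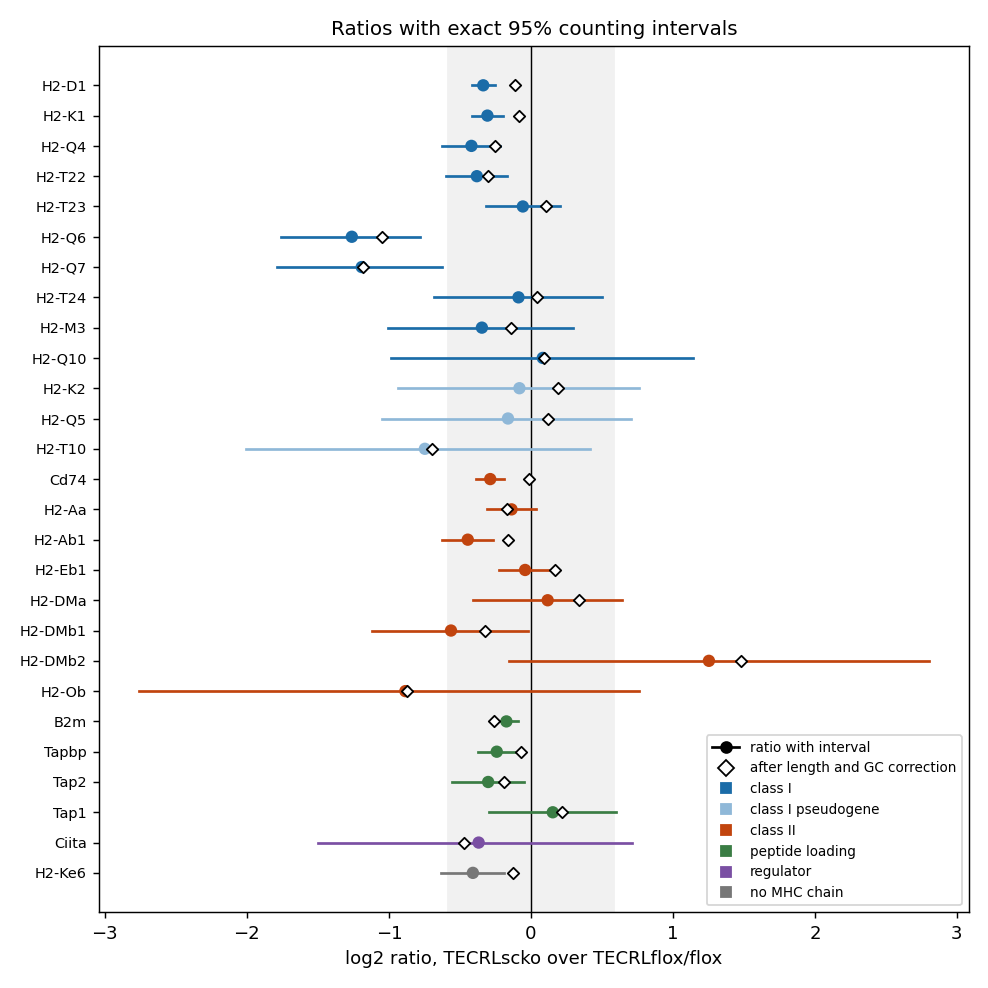
log2 ratio, TECRLscko over TECRLflox/flox, of each member with at least 10 counts, with exact 95% counting intervals as bars and the ratio after correction for transcript length and GC content as open diamonds; the gray band is within 1.5-fold. H2-Q6 and H2-Q7 are the only members whose whole interval lies below the band, and they stay below it after the correction, at -1.05 and -1.19.

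A library-wide trend moves with these ratios. With all genes cut into 10 bins by transcript length, the bin of the shortest had a median log2 ratio of -0.18 and that of the longest 0.34. With 10 bins by GC content, the lowest bin had 0.39 and the highest -0.18. Most members have short, GC-rich transcripts, and the trend read at their length and GC content lay between -0.28 and 0.09 on the log2 scale for the 22 members past the filter. After subtracting it, 15 of the 22 were below the TECRLflox/flox level, where 52.9% of all genes were, and their median log2 ratio was -0.12. The class I sum then stood at -0.14, the class II sum at -0.032 and the loading sum at -0.19. H2-Q6 and H2-Q7 were the 2 members that remained at least 1.5-fold lower, against 4.81% of all genes after the correction, and no member was at least 1.5-fold higher, against 5.96%. For these 2 genes the trend was -0.21 and -0.0055.

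**Figure D3:**
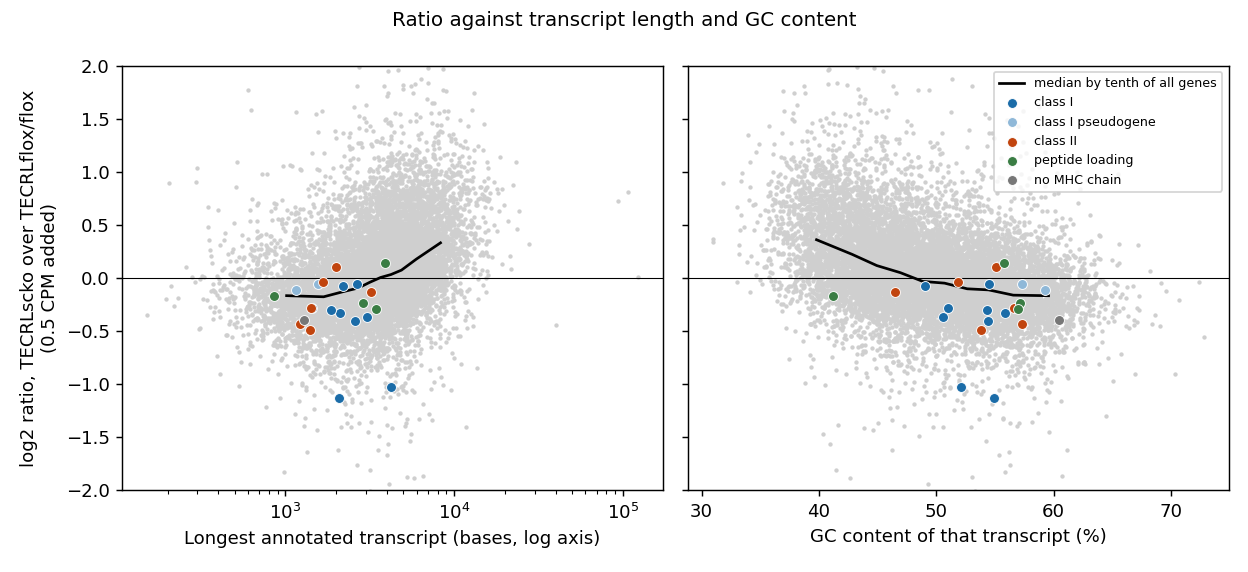
log2 ratio of each gene with a mean of at least 1 CPM, with 0.5 CPM added on both sides, against the length (left, log axis) and GC content (right) of its longest annotated transcript; gray points are all genes, the black line joins medians of 10 bins, colored points are members, and 39 genes beyond 2 in either direction are not drawn. H2-Q6 and H2-Q7 lie below the line by about 1, and the other members lie nearer to it.

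Other genes of the same pathways were counted from lists. Of 8 genes of class I assembly, 5 were below the TECRLflox/flox level, where 51.8% of all genes were, and none passed 1.5-fold in either direction, against 4.94% of all genes lower and 10.5% higher. Their median was -0.029, and their summed ratio was 1.04 (1.01 to 1.07). Calr, the chaperone calreticulin and the most abundant of them, had 2482 counts in the TECRLscko library and 3314 in the TECRLflox/flox library (log2 ratio -0.16). The chaperone Canx had a ratio of 1.35 (1.25 to 1.44), the peptide-trimming protease Erap1 1.25 (1.07 to 1.44) and the protease Sppl2a 1.24 (1.16 to 1.32). After the correction the log2 ratio was 0.17 for Canx, and those of Erap1 (-0.077) and Sppl2a (-0.16) were on the other side of 0. The corrected median of the class I assembly list was -0.11. Tapbpl, a tapasin-related peptide editor, stood at -0.56 on 81 TECRLscko counts and 142 TECRLflox/flox counts. Of 5 immunoproteasome genes, whose products cut peptides suited to class I, 3 were below and none passed 1.5-fold. Their median was -0.22, and their corrected median, at 0.051, was on the other side of 0. Of 10 class II processing genes 8 were found by name and 6 passed the filter, all 6 below and none past 1.5-fold, with a median of -0.17. The most abundant of these, the endosomal protease Ctsb, had 5778 counts in the TECRLscko library and 8216 in the TECRLflox/flox library (-0.25).

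Of 13 regulators of MHC transcription, 10 were below the TECRLflox/flox level, 2 were at least 1.5-fold lower and none was at least 1.5-fold higher, with a median of -0.13. Over all genes these shares were 51.8%, 4.94% and 10.5%. Rfx5, a subunit of the RFX complex that binds the X box, had 82 counts in the TECRLscko library and 190 in the TECRLflox/flox library, a ratio of 0.515 (0.392 to 0.670). Creb1, whose product can bind the X2 box, had 82 TECRLscko counts and 195 TECRLflox/flox counts, a ratio of 0.501 (0.383 to 0.652). Their log2 ratios were -1.01 and -1.62 after the correction. The other RFX subunits did not show this: Rfxank stood at -0.09 and Rfxap at -0.02. Nlrc5, the class I transactivator, had 28 counts in the TECRLscko library and 49 in the TECRLflox/flox library, a ratio of 0.681 (0.412 to 1.11). Irf1, an interferon-induced activator of class I genes, had 146 TECRLscko counts and 253 TECRLflox/flox counts, a ratio of 0.688 (0.557 to 0.847).

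Interferon-induced genes were mixed. Of the 16 past the filter 10 were below the TECRLflox/flox level, 2 were at least 1.5-fold lower and 2 at least 1.5-fold higher, with a median of -0.094. The shares over all genes were 51.8% below, 4.94% lower and 10.5% higher. Usp18, which dampens interferon receptor signaling, stood at -0.79 and the immunity-related GTPase Igtp at -0.59. Gbp7, a guanylate-binding protein, stood at 0.78 and Ifit2 at 0.74. Corrected log2 ratios were -0.60 for Usp18, -0.44 for Igtp, 0.39 for Gbp7 and 0.50 for Ifit2. Of these genes only Usp18 stayed past 1.5-fold after the correction, and the corrected list median was -0.12.

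Markers of the cells that carry MHC message were set beside these values, and their part in the result was not tested. The 10 macrophage markers, all detected, summed to 153 CPM in the TECRLscko library and 171 CPM in the TECRLflox/flox library. Their summed ratio was 0.894 (0.849 to 0.942), and 7 of 10 were below the TECRLflox/flox level, where 51.8% of all genes were. Their median log2 ratio was -0.21 and their corrected median -0.032. Corrected log2 ratios ran from -0.52 for Cd68 to 0.09 for Fcgr1, with Csf1r at -0.34, C1qb at -0.07, C1qa at 0.046 and C1qc at 0.037. Among the macrophage markers Cd68 stood at -0.76, past 1.5-fold, and Mrc1 at 0.26. The 6 endothelial markers summed to a ratio of 0.983 (0.953 to 1.01), and the 3 pan-leukocyte markers to 1.06 (0.912 to 1.23). Ptprc, the leukocyte marker CD45, had 54 counts in the TECRLscko library and 39 in the TECRLflox/flox library. Its ratio of 1.65 (1.07 to 2.56) was past 1.5-fold in the other direction from Cd68. After the correction neither was past 1.5-fold, with log2 ratios of 0.24 for Ptprc and -0.52 for Cd68. The 7 dendritic cell markers gave 203 counts in the TECRLscko library and 224 in the TECRLflox/flox library. Zbtb46, which endothelium also expresses, made up 141 of these in the TECRLscko library and 179 in the TECRLflox/flox library. The others differed in direction. Cd209a had 34 counts in the TECRLscko library and 18 in the TECRLflox/flox library, Itgax had 21 TECRLscko and 6 TECRLflox/flox counts, and Clec9a had 4 TECRLscko and 1 TECRLflox/flox counts. Flt3 had 0 TECRLscko and 7 TECRLflox/flox counts, Ccr7 had 2 TECRLscko and 8 TECRLflox/flox counts, and Xcr1 had 1 TECRLscko and 5 TECRLflox/flox counts. B cell markers gave 22 TECRLscko and 30 TECRLflox/flox counts, and T cell markers gave 11 TECRLscko and 4 TECRLflox/flox counts with Cd3d at 0 in both. Natural killer cell markers gave 9 TECRLscko and 0 TECRLflox/flox counts, and neutrophil markers 13 TECRLscko and 14 TECRLflox/flox counts with Ly6g and Mpo at 0 in both. No lymphocyte marker passed the filter. The fibro-adipogenic markers Dcn, Col1a1 and Pdgfra stood between -0.13 and 0.12 before correction. Ly6a, a surface protein of these cells and of endothelium, stood at -0.76 on 552 TECRLscko counts and 1115 TECRLflox/flox counts. Corrected log2 ratios were -0.60 for Dcn and -0.61 for Ly6a, both past 1.5-fold, -0.22 for Pdgfra and 0.047 for Col1a1. The median of this list was -0.048 before correction and -0.41 after it.

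**Figure D4:**
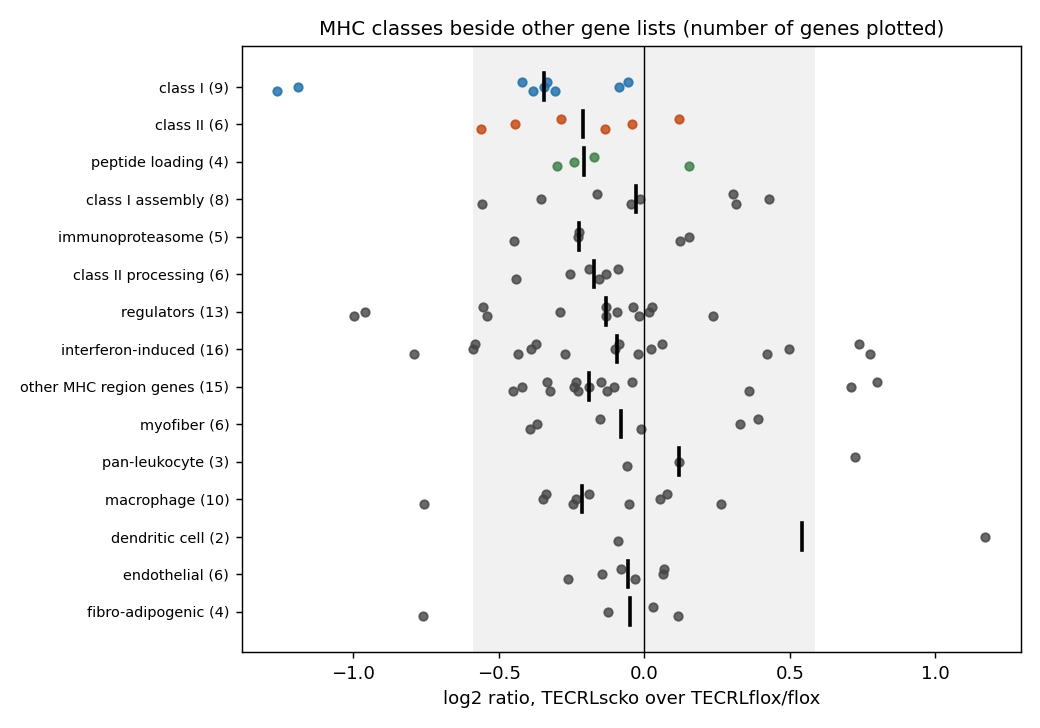
log2 ratio, TECRLscko over TECRLflox/flox, of single genes past the 1 CPM filter in the MHC classes and in the other lists, 1 point per gene, with the median as a black bar, the number of genes in brackets and the gray band within 1.5-fold. The class I median lies at -0.34, the class II and peptide loading medians both near -0.21, the macrophage median at -0.21 and the endothelial median at -0.06.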

How the data were processed

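Total RNA of gastrocnemius was sequenced, with 1 library for each group. GRCm38, StringTie 1.3.0, HISAT2 2.0.4 and CASAVA are named in the submitters' processing notes, with no role stated. The counter, strand setting and annotation release were not given in the sources used here. The deposited table gives raw counts, whole numbers with no normalization, and FPKM for each gene, per the file headers. The deposited FPKM equal counts over a gene length and the library total: the implied length agreed between libraries within 1% for 100% of 13061 genes. It exceeds the longest transcript of many members, so levels per length use CPM per kilobase of that transcript.

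Counts were scaled by TMM (edgeR 4.0.16, R 4.3.3). Ratios are plain CPM ratios with 95% Clopper-Pearson intervals given the total of both counts, and quotients have exact conditional odds ratios (scipy 1.17.1). No molecular identifiers were counted, so reads can be copies of 1 molecule, and both the intervals and the floor (3 counts) cover counting error only. With 1 library per group, edgeR's and DESeq2's tests were not run. Length and GC trends were fitted by lowess (span 0.3, statsmodels 0.14.6) on log2 ratios with 0.5 CPM added, using GENCODE M21 transcripts. Coordinates are as deposited. The ratio intervals and the 1.5-fold rule were tried on simulated counts that held counting error only, and the other steps were not. Every member with a count is named; other pathway genes are named where they passed 1.5-fold, led their list, or regulate MHC genes, and a few others were chosen after their values were seen. Members, lists and motifs were chosen with earlier results of these data known. Alternatives were size factors of DESeq2 1.42.0, total-count scaling, FPKM, a pseudocount, other filters and folds, the correction, and sums without single members or overlapping models.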

Additional observations from a re-analysis of the deposited data

How the results depend on the processing

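The class I sum, a log2 ratio of -0.34, moved past its counting interval with total-count scaling (-0.41), with the deposited FPKM (-0.43) and after the length and GC correction (-0.14). The class II sum, -0.25, moved to -0.032 after the correction, and the loading sum, -0.19, to -0.26 with total-count scaling. Total-count scaling shifts every ratio by the scaling factors alone, and the correction shifts each gene's ratio by the trend taken off. Single-gene FPKM ratios were near those of total-count scaling, with H2-D1 at -0.40 in both, while an FPKM sum weights genes by length. The cause of the trend was not tested. The difference of class II minus class I, 0.10, lay between 0.09 and 0.15 under the alternatives that can change it (library scaling cannot). Members at least 1.5-fold lower numbered 2, became 5 with no filter and 1 with the filter raised to 5 CPM, which compare more and fewer members, and were 3 with total counts or FPKM. Members at least 1.5-fold higher numbered 0 and became 1, H2-DMb2, with no filter. The counts with no filter leave out 4 members with 0 counts in 1 library, H2-M9, H2-Bl, H2-M1 and H2-Oa, which have no ratio. Adding class I pseudogenes (-0.34) or leaving out H2-Q6 and H2-Q7 (-0.32), both added after seeing the data, left the class I sum within its interval. Of the 22 members' ratios, 8 moved past their interval after the correction and none under the other 4 settings tried for single members, and H2-Q6 and H2-Q7 were at least 2-fold lower under each. Without overlapping models no loading gene was left, so that sum has no value. Tests with replicates left out need more libraries. No paired analysis was possible because the 2 groups hold a single library each. Depth limits Ciita, H2-DMb2, H2-O and the lymphocyte markers.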

Other observations

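Other genes of the MHC region that carry no H2 name were read from a list of 20. Of these 15 passed the filter of 1 CPM, 12 were below the TECRLflox/flox level, none was at least 1.5-fold lower and 2 were at least 1.5-fold higher, with a median log2 ratio of -0.19. Over all genes 51.8% were below, 4.94% at least 1.5-fold lower and 10.5% at least 1.5-fold higher. With the length and GC trend taken off, the median of the 15 was 0.042, on the other side of 0. Both higher genes encode the inducible heat shock protein Hsp70. Hspa1a had 203 counts in the TECRLscko library and 139 in the TECRLflox/flox library, a ratio of 1.74 (1.40 to 2.18). Its near-identical neighbor Hspa1b had 107 TECRLscko counts and 78 TECRLflox/flox counts, a ratio of 1.64 (1.21 to 2.22), and the split of reads between the copies is uncertain. The adjacent Hspa1l had 526 counts in the TECRLscko library and 489 in the TECRLflox/flox library, a ratio of 1.28 (1.13 to 1.45). The bromodomain gene Brd2, which lies among the class II genes, had 1539 TECRLscko counts and 2454 TECRLflox/flox counts, a ratio of 0.748 (0.701 to 0.797). The complement genes C2, C4b and Cfb stood between -0.24 and -0.10, and Aif1, Lst1, Ltb, Lta and Tnf lay under the filter, with at most 19 counts in either library.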
